A study of Mus musculus with 6 samples.

Results

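Heat shock and chaperone genes were taken as the protein-coding genes whose symbol names an Hsp90 protein, Stip1, an Hsp70 or Hsp110 protein (Hspa and Hsph1), the mitochondrial chaperonin (Hspd1 and Hspe1), a subunit of the cytosolic chaperonin CCT (Tcp1 and Cct2 to Cct8) or a J-domain protein of the Dnaja, Dnajb or Dnajc series. The rule gave 72 of the 21751 protein-coding gene symbols of the annotation, and it used no measured value. Chromatin was profiled by CUT&RUN, which uses an antibody to bring a nuclease to a protein or histone mark and sequences the DNA it releases. The cells were prospermatogonia, fetal male germ cells, of C57BL/6 mice at embryonic stage E16.5. They were Taf4b-wildtype, came from gonads of male embryos whose parents were homozygous for an Oct4-EGFP transgene, and were sorted as live GFP+ cells, so that the sort depended on the activity of the Oct4 (Pou5f1) locus. Antibodies against TAF4b and against H3K4me3 had 2 replicates each, and 2 IgG control libraries were not analysed here. Each of the 4 lists holds the intervals of 1 library. The labels do not say whether the replicates came from separate embryos or sorts.

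Chaperones bind unfolded or partly folded proteins. Hsp70 proteins hold short exposed stretches in cycles of ATP hydrolysis that J-domain proteins start and nucleotide exchange factors such as the Hsp110 proteins end, and Stip1 (Hop) hands clients from Hsp70 to Hsp90. Chaperonins enclose a client in a ring, CCT in the cytosol and Hspd1 with its lid Hspe1 in mitochondria. Many of these genes are induced by heat shock factors, which bind inverted repeats of GAA called heat shock elements, or, for chaperones of the endoplasmic reticulum, by the unfolded protein response through ER stress elements. TAF4b is a gonad-enriched paralogue of TAF4 and a component of TFIID, the complex that recognizes core promoters, and H3K4me3 is a histone mark of active or poised promoters. Several members have testis roles: Hspa2 is needed for male meiosis, Hspa1l and Hspa4l are high in later male germ cells, and Dnajb13 is part of the sperm flagellum.

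Promoters with TAF4b in both libraries included those of the constitutive Hsp70 Hspa8, the Hsp70 and Hsp90 of the endoplasmic reticulum, Stip1 and the Hspd1 and Hspe1 pair. The intervals below are the TAF4b replicate 2 peaks of 9 members, each found in both TAF4b libraries, and the replicate 1 peak of Dnajc3. They are shown for the sequence matches they carry and do not stand for all members. Cct6a, Dnajb11 and Dnajc1, which were also found in both TAF4b libraries, are not shown. Coordinates are read on GRCm39, which the H3K4me3 headers name. The TAF4b headers name no build, and GRCm39 was inferred for them from the transcripts and from deposited distances, of which 57.4% (replicate 1) and 51.3% (replicate 2) equalled those on GRCm39 to the base. Each sequence is written 5′ to 3′ on the strand of the member. Capitals mark heat shock elements (GAANNTTC or TTCNNGAA), CCAAT boxes (CCAAT, or ATTGG on the other strand), ER stress elements (CCAAT and CCACG with 9 bases between them) and GFY matches (ACTACANNT), on either strand. Stip1 was at chr19:7017488-7017676 on the minus strand, Hspa8 at chr9:40712361-40712549 (plus) and Hspa5 at chr2:34661869-34662057 (plus). Hsp90b1 was at chr10:86541468-86541656 (minus), Hspe1 at chr1:55127056-55127244 (plus) and Tcp1 at chr17:13135060-13135248 (plus). Cct7 was at chr6:85428261-85428449 (plus), Hsph1 at chr5:149560178-149560366 (minus), Hspa13 at chr16:75563698-75563886 (minus) and Dnajc3 at chr14:119175207-119175349 (plus).
Stip1: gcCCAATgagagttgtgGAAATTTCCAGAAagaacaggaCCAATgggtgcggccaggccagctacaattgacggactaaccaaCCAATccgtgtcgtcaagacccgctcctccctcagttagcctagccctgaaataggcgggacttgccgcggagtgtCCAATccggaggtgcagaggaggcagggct
Hspa8: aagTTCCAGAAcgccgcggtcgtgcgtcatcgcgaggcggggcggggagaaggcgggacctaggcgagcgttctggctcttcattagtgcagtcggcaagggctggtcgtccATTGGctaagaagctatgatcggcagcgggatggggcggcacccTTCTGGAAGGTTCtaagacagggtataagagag
Hspa5: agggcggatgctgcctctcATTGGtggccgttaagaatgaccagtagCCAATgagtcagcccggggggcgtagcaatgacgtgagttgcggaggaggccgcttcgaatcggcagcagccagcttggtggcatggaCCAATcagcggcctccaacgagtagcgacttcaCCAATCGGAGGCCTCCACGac
Hsp90b1: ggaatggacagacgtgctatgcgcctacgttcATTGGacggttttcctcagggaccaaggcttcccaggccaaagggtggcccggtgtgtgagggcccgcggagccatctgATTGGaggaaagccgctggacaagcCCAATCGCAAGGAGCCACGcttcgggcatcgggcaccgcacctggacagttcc
Hspe1: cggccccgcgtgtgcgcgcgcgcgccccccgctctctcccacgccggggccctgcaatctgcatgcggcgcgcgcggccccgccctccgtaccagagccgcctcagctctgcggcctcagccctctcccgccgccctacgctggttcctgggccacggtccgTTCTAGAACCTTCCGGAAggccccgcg
Tcp1: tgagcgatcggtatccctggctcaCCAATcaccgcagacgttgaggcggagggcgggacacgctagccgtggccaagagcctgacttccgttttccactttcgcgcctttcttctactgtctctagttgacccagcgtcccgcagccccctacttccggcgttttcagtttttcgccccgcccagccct
Cct7: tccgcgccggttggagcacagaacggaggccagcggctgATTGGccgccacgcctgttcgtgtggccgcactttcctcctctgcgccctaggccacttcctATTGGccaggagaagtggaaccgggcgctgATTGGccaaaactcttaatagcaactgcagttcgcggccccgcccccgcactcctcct
Hsph1: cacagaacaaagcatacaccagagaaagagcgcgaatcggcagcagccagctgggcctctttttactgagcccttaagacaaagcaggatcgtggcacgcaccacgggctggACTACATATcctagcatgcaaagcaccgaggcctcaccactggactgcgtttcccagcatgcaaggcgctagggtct
Hspa13: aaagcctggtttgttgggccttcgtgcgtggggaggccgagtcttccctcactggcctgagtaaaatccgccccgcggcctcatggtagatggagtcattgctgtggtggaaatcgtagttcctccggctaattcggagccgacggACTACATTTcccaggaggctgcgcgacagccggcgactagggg
Dnajc3: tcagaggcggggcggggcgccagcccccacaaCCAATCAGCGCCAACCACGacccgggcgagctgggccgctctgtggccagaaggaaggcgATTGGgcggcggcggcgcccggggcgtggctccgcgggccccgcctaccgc

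Adjoining heat shock elements, 3 in all, stood near the 3′ end of the Hspe1 interval, which is the promoter shared with Hspd1. Stip1 held overlapping heat shock elements at its 5′ end and 4 CCAAT boxes. Hspa8 held a heat shock element at its 5′ end and an overlapping pair close to its 3′ end. Hspa5, Hsp90b1 and Dnajc3, all chaperones or co-chaperones of the endoplasmic reticulum, each held 1 ER stress element. A GFY match, the core of a sequence common at housekeeping promoters, was present at Hsph1 in both libraries and at Hspa13 in replicate 2 only. In replicate 1, 2 of 37 member promoter peaks held one (5.41%, Wilson interval 1.5 to 17.7%), against 5.94% of all promoter peaks. In replicate 2 the count was 2 of 8 (25%, 7.15 to 59.1%), against 8.56%. Both intervals cover the share of all promoter peaks, so GFY matches do not set the members apart.

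Intervals were assigned to genes by 2 rules. Under the promoter class, the deposited annotation had to be promoter-TSS, and the gene was that of the transcript named there. Under the start site window, an interval had to come within 500 bp of any annotated start site of the member, which also counts a promoter that the list names for the gene on the other side. At least 1 row of the lists named 67 of the 72 members, and the 5 that no row named were Cct5, Dnajb7, Dnajc30, Hsp90b1 and Hspa1a. TAF4b replicate 1 had 45 rows at the members of 7861 in all, replicate 2 had 8 of 848, H3K4me3 replicate 1 had 109 of 64891 and H3K4me3 replicate 2 had 13 of 1730. For both antibodies the replicate 1 list was much the longer. The depth is unknown, since no read totals are at hand.

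Replicate 1 of TAF4b placed a promoter peak at 34 of 72 members (47.2%, 95% Wilson interval 36.1 to 58.6%), where 22.7% of all protein-coding genes had one. In replicate 2 the count was 8 of 72 (11.1%, 5.74 to 20.4%), against 3.14% of all genes. Both replicates named the same 8 members (11.1%), against 2.7% of all genes. In the start site window the counts rose to 47 members (65.3%, 53.8 to 75.2%; all genes 28.2%) and 13 members (18.1%, 10.9 to 28.5%; all genes 4.08%). An H3K4me3 promoter region was listed for 48 members in replicate 1 (66.7%, 55.2 to 76.5%), against 44% of all genes, and for 7 in replicate 2 (9.72%, 4.79 to 18.7%), against 4.14%. Within the start site window H3K4me3 reached 70 members in replicate 1 (97.2%; all genes 70.7%) and 13 in replicate 2 (18.1%; all genes 7%). The 2 members without H3K4me3 there were Dnajb7 and Dnajb8, J-domain genes known for expression in testis. Among genes with an H3K4me3 region in the window, TAF4b was also there at 47 of 70 members (67.1%) against 39% of all such genes in replicate 1, and at 13 of 70 (18.6%) against 5.63% in replicate 2. Wilson intervals cover counting error only, genes are not replicates, and no test of these shares was made.

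**Figure D1:**
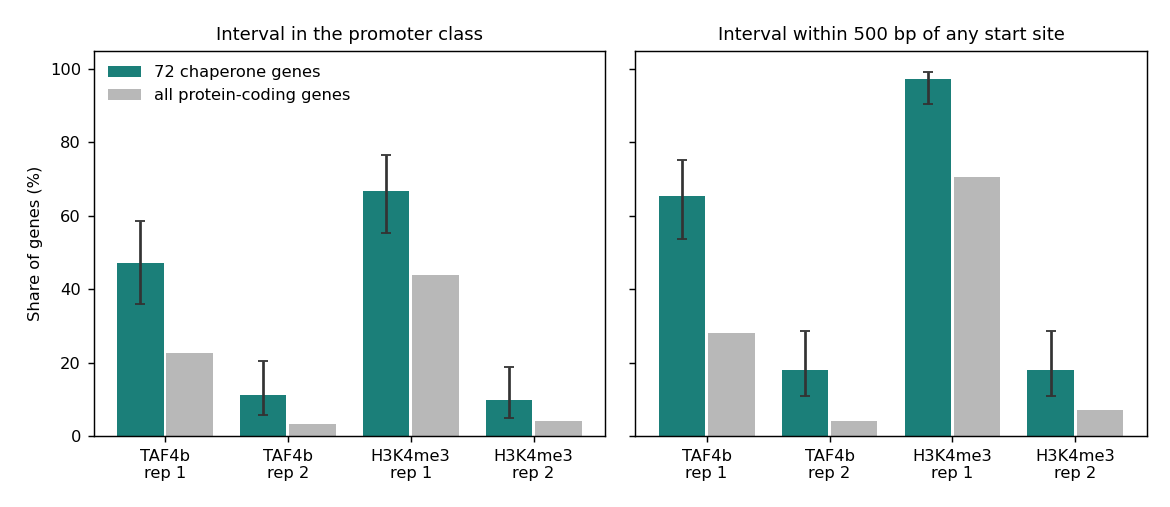
Share of genes (y axis, percent) with an interval in each of the 4 lists, for the 72 chaperone genes (green, error bars are 95% Wilson intervals) and for all 21751 protein-coding genes (grey), under the promoter class (left) and the start site window of 500 bp (right). The green bar is the higher one in all 8 pairs, and both replicate 2 lists give low bars in both groups.

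Across the lists as deposited the shares of the 2 antibodies overlapped. The mean share of members with a promoter interval was 29.2% ± 25.5 (SD, n = 2) for TAF4b and 38.2% ± 40.3 (SD, n = 2) for H3K4me3, a difference of -9.03 percentage points (exact two-sided permutation test, p = 1, smallest possible p 0.333). Within replicate 1 the difference was -19.4 points and within replicate 2 it was 1.39 points. The spread between replicates exceeded the difference. With each antibody's replicate 1 list reduced to its highest-scoring intervals, as many as in replicate 2, the direction turned under the promoter class. TAF4b gave 13.9% (all genes 3.35%) and 11.1%, and H3K4me3 gave 1.39% (all genes 3.42%) and 9.72%. The difference was 6.94 points, with both TAF4b values above both H3K4me3 values (p = 0.333 in the same exact permutation test, the smallest possible). The reduced lists were not counted by the start site window. Through that window alone, Dnajc22, Hspa2 and Cct7 had H3K4me3 replicate 1 regions at ranks 537, 1015 and 1249.

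**Figure D2:**
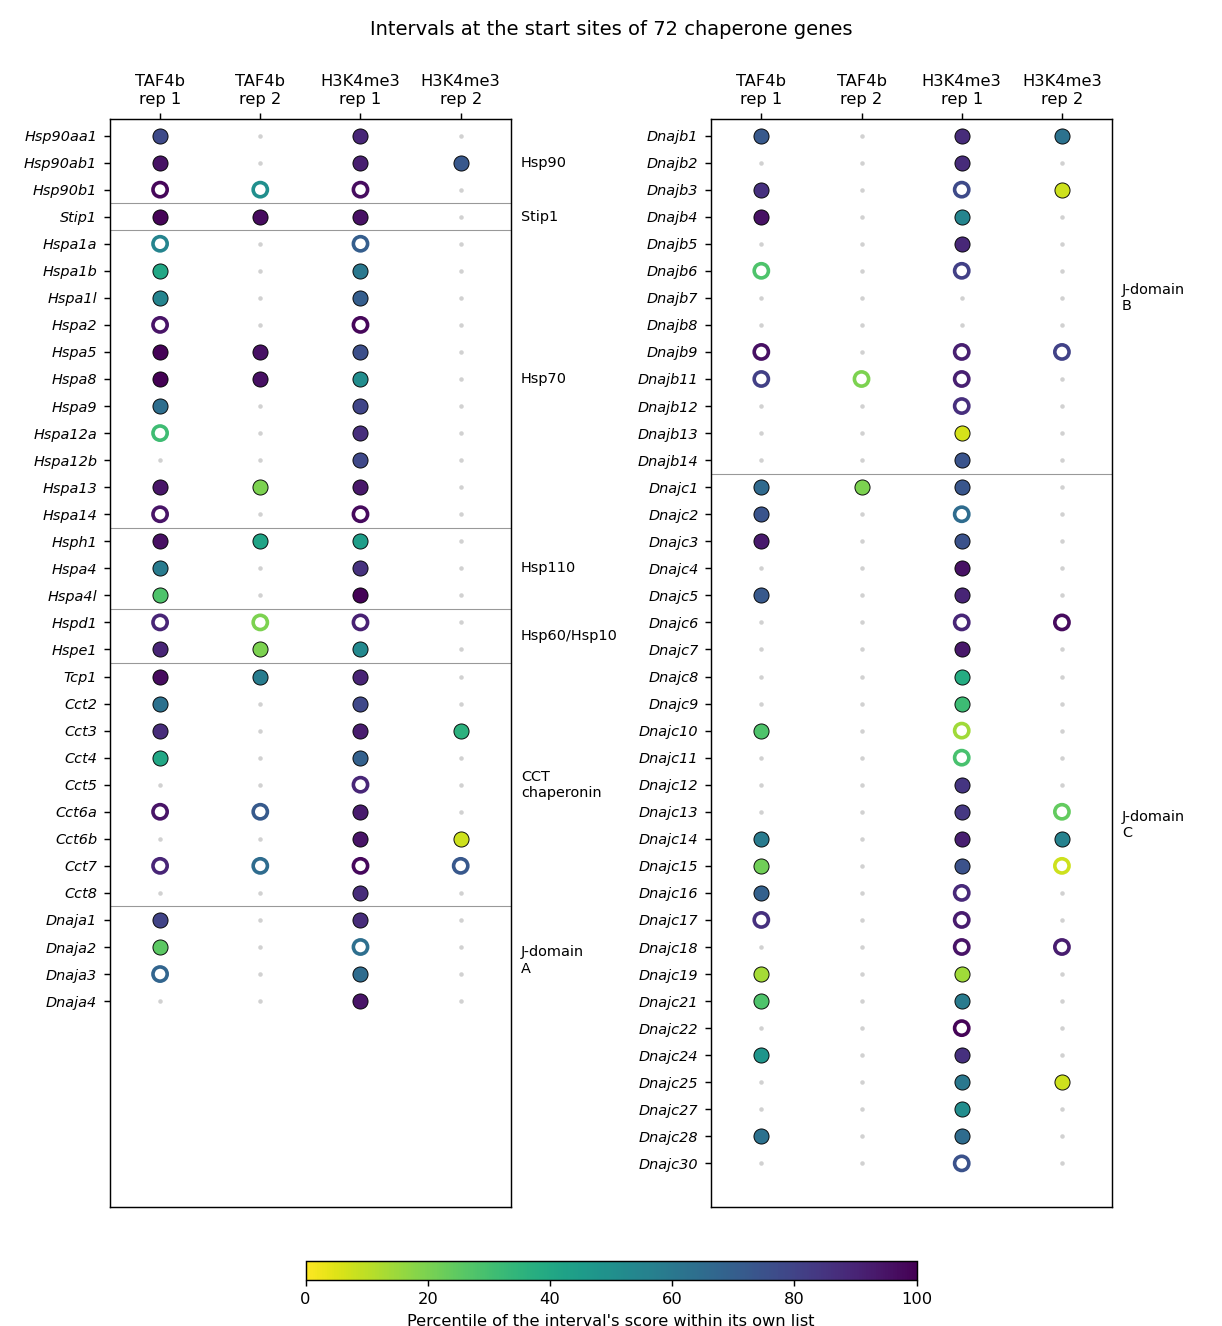
Every member (rows, by class) in every list (columns); colour is the percentile of the interval's score within its own list, filled circles are promoter-class intervals, open circles are intervals found only through the start site window, and small dots mean none. H3K4me3 replicate 1 is filled or open for 70 members, and TAF4b replicate 2 for 13, each of which also has a TAF4b interval in replicate 1.

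Among the Hsp90 genes, all 3 had TAF4b in the start site window of replicate 1 (all genes 28.2%). Hsp90ab1, the constitutive cytosolic Hsp90, had 2 replicate 1 peaks with scores of 35.2 and 13.4, a replicate 1 H3K4me3 region of 122.2 and a replicate 2 region of 131.4, and no peak in TAF4b replicate 2. Hsp90aa1, the inducible cytosolic form, had a TAF4b score of 22.8 and an H3K4me3 score of 113.3 in replicate 1 and no interval in either replicate 2 list. A second TAF4b peak of Hsp90aa1, with a score of 13.4, was classed at the transcript end. Scores are the authors' values and are read only within a list, so the replicates' scores cannot be set against each other.

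Hsp90b1, the Hsp90 of the endoplasmic reticulum (GRP94), was absent under the promoter class because the lists name its promoter for Ttc41, whose start site is 241 bp away on the opposite strand. Its TAF4b peaks scored 42.2 in replicate 1, rank 129 of 7861, and 60.7 in replicate 2, rank 382 of 848. The H3K4me3 region there scored 161.0 in replicate 1. It was therefore the Hsp90 gene with TAF4b in both libraries. Stip1, the adaptor between Hsp70 and Hsp90, had peaks of 46.7 in replicate 1 (rank 61) and 141.7 in replicate 2 (rank 25), and an H3K4me3 region of 149.1 in replicate 1. These were percentiles 99.2, 97 and 95.6 of their lists.

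In the Hsp70 class TAF4b replicate 1 gave a promoter peak to 6 of 11 genes (all genes 22.7%) and a window peak to 10 of 11 (all genes 28.2%), and replicate 2 gave 3 under either rule (all genes 3.14% and 4.08%). Hspa8, the constitutive cytosolic Hsp70 (Hsc70), had the highest TAF4b score of all members in replicate 1 (55.6, rank 25) and the second highest in replicate 2 (121.4, rank 33). Hspa5, the Hsp70 of the endoplasmic reticulum (BiP), scored 47.6 (rank 53) and 117.4 (rank 37). Hspa13, a microsomal Hsp70-like ATPase, scored 34.2 (rank 430) and 48.6 (rank 635). These 3 kept their order between libraries, but other members did not. Stip1 scored below Hspa8 and Hspa5 in replicate 1 and above both in replicate 2, and Tcp1 scored above Cct6a and Cct7 in replicate 1 and below both in replicate 2. Hspa9, the mitochondrial Hsp70 (mortalin), scored 18.4 in replicate 1 and was not listed in replicate 2.

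Heat-inducible and testis Hsp70 genes were lower or were named for neighbours. Hspa1b, an inducible Hsp70, had a replicate 1 TAF4b peak of 12.9 at -311 bp, percentile 40.4. A single peak of 15.9 fell between Hspa1l and Hspa1a, which start 532 bp apart on opposite strands, and the list named it for Hspa1l. Hspa1a and Hspa1b are near-identical copies, so reads inside them may not be placed with certainty. Hspa2, the meiotic Hsp70, had a TAF4b peak of 34.7, percentile 94.7, listed for 4930426I24Rik, and an H3K4me3 region of 187.8, percentile 98.4. Hspa14, a ribosome-linked Hsp70, also had a peak of 34.7, listed for Msantd7. Hspa12a had a peak of 11.4 only at an annotated start site far from its canonical one, and Hspa12b had none.

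All 3 Hsp110 genes, the exchange factors of Hsp70, had a TAF4b promoter peak in replicate 1 (all genes 22.7%). Hsph1 scored 36.2 in replicate 1 (rank 315) and 56.7 in replicate 2 (rank 456), with centres -372 and -431 bp from the start site, and was the Hsp110 gene found in both libraries. Hspa4 scored 16.9 and Hspa4l 10.9 in replicate 1 only. Their H3K4me3 scores ran the other way: 41.7 for Hsph1, 101.4 for Hspa4 and 240.0 for Hspa4l in replicate 1. The Hspa4l region was 3230 bp wide and had the highest H3K4me3 score of the members.

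Hspd1 (Hsp60) and Hspe1 (Hsp10) start 108 bp apart on opposite strands and share 1 TAF4b peak in each library, with a score of 29.3 in replicate 1 and 48.6 in replicate 2. The list names it for Hspe1 in the annotation and for Hspd1 as nearest start. This peak lay in no H3K4me3 region. The nearest replicate 1 region, chr1:55126219-55126844 with a score of 49.2, ended 246 bp from the replicate 1 peak and 212 bp from the replicate 2 peak, on the Hspd1 side, and the next one on the Hspe1 side was 14883 bp from the replicate 1 peak. Dnajc10 was the other promoter-class member peak outside the H3K4me3 regions, 450 bp from one with a score of 23.8.

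Of the 9 CCT genes, TAF4b replicate 1 marked 4 by a promoter peak (all genes 22.7%) and 6 by the start site window (all genes 28.2%), and 3 of these were also in the window of replicate 2 (all genes 4.08%). Tcp1, the alpha subunit, scored 38.2 (rank 237) and 64.8 (rank 327). Cct7 and Cct6a were found through promoters listed for Pradc1 and Psph: Cct7 scored 29.3 and 68.8, and Cct6a scored 34.7 and 72.9. Cct3 (27.8, with a start of Tsacc nearest), Cct2 (17.9 and 16.4, a pair of peaks) and Cct4 (12.9) were listed in replicate 1 only. Cct5, Cct8 and Cct6b had no TAF4b peak in either library. Cct6b, the testis form of Cct6a, nevertheless had H3K4me3 in both libraries, at 143.1 and 96.0. Zfp830, which starts 24 bp away on the opposite strand, was the nearest start of both regions. Subunits of 1 complex thus ranged from percentile 96.9 of the replicate 1 list to no entry, while all 9 had an H3K4me3 region in the start site window of replicate 1, as did 70.7% of all genes.

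J-domain genes made up 43 of the members, and TAF4b replicate 1 was in the window of 3 of 4 of type A, 6 of 13 of type B and 13 of 26 of type C (all genes 28.2%). Replicate 2 had 0 of 4, 1 of 13 and 1 of 26, so that 2 of the 43 J-domain genes had a window peak there (4.65%), near the 4.08% of all genes, and 11 of the other 29 members did (37.9%). Type A genes, which act with Hsp70 on general folding, had promoter-class peaks at Dnaja1 (23.8) and Dnaja2 (10.4). Dnaja3, a mitochondrial member, was counted in the window alone, from a peak of 19.4 listed for Vasn at a start site far from its canonical one. Dnaja4 had none. In type B, Dnajb9 and Dnajb11, J-proteins of the endoplasmic reticulum (ERdj4 and ERdj3), had replicate 1 peaks of 36.2 and 24.3 listed for Mir5627 and Tbccd1, and Dnajb11 was also found in replicate 2 at 48.6. Dnajb4 had 2 peaks, of 35.7 and 9.43, at different start sites, and the start nearest to the 35.7 peak was that of Fubp1, at -2 bp. Dnajb3 scored 26.8. Dnajb1 (Hsp40), the main heat-inducible J-protein, scored 20.8, at a peak whose nearest start was that of Tecr.

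Dnajc3, an inhibitor of the kinases PERK and PKR and a co-chaperone of Hspa5, led type C in replicate 1 with 32.3. Dnajc17 followed with 26.8 at a promoter listed for Zfyve19, and Dnajc2, a ribosome-bound J-protein, scored 21.3. Dnajc1, a J-protein of the endoplasmic reticulum membrane (ERdj1), scored 18.9 in replicate 1 (rank 2607, percentile 66). It was the type C member found in replicate 2, at 48.6 (rank 635, percentile 19.7 of that shorter list). In H3K4me3 replicate 2 the promoter-class members were Hsp90ab1 (131.4), Dnajb1 (121.3), Dnajc14 (116.2), Cct3 (106.1), and Cct6b, Dnajb3 and Dnajc25 (96.0 each, the lowest score among all promoter regions of the list).

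No promoter-class interval in any list was found for 19 members: Cct5, Cct7, Dnajb6, Dnajb7, Dnajb8, Dnajb9, Dnajb11, Dnajb12, Dnajc6, Dnajc11, Dnajc17, Dnajc18, Dnajc22, Dnajc30, Hsp90b1, Hspa1a, Hspa2, Hspa14 and Hspd1. They were 26.4% of the members, and 49.3% of all protein-coding genes had no such interval. Of the 19, 17 had an H3K4me3 region in the start site window of replicate 1 (89.5%; all genes without a promoter-class interval 42%). The deposited class follows the centre of an interval, so a wide region over a start site can be classed as intron or exon or be named for a neighbour. Counting only the canonical start site of each protein-coding gene, and only pairs whose transcripts point away from each other without overlapping, a partner gene within 1000 bp was present for 11 members (15.3%), against 5.04% of all protein-coding genes. Members whose neighbour overlaps them on the opposite strand from its canonical start, such as Cct6a with Psph and Cct7 with Pradc1, are not among the 11. TAF4b replicate 1 was in the window of 8 of these 11 (72.7%; all genes with a partner 65.7%) and of 39 of the other 61 members (63.9%; all other genes 26.3%). Among the members with a partner, Hspd1 and Hspe1 share 1 peak and Hspa1a and Hspa1l share another, and the share of these 11 is near that of all genes with a partner.

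The 37 TAF4b promoter peaks of the members in replicate 1 had a median score percentile of 66, against 58.9 over all 5756 promoter peaks of the list. Their scores ran from 8.93 to 55.6 with a median of 18.9, and the median over all promoter peaks was 16.9. In replicate 2 the 8 member peaks had a median percentile of 49.9 against 50.7. Members were spread over the replicate 2 list, with Stip1, Hspa8 and Hspa5 in its top 10% and Hspa13, Dnajc1 and Hspe1 at percentile 19.7. Of the member peaks in the top 10% of replicate 1 scores, 6 of 9 overlapped a replicate 2 peak (all promoter peaks 43.9%), and the 3 that did not belonged to Dnajb4, Dnajc3 and Hsp90ab1. From percentile 50 to 90 the count was 2 of 17 (all 9.45%), and below it 0 of 11 (all 0.497%). All 8 replicate 2 peaks of members overlapped a replicate 1 peak, with 4 to 81 bp between centres, against 608 of 748 promoter peaks in all (81.3%).

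Peak centres of members had a median of -29 bp from the nearest start site in replicate 1 (all promoter peaks -51 bp) and -72.5 bp in replicate 2 (all -72 bp), and 28 of 37 (75.7%) were upstream in replicate 1 against 80.8% of all. Peak positions depended on the transcript used. Hspa8 was at -113 bp by the deposited distance and at 179 bp from the canonical start of GENCODE M39, which lies further upstream. Among peaks within 800 bp of the canonical start, those of Hsph1, Hspa1a and Hspa1b and the second peak of Hsp90ab1 were centred more than 300 bp upstream in replicate 1.

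**Figure D3:**
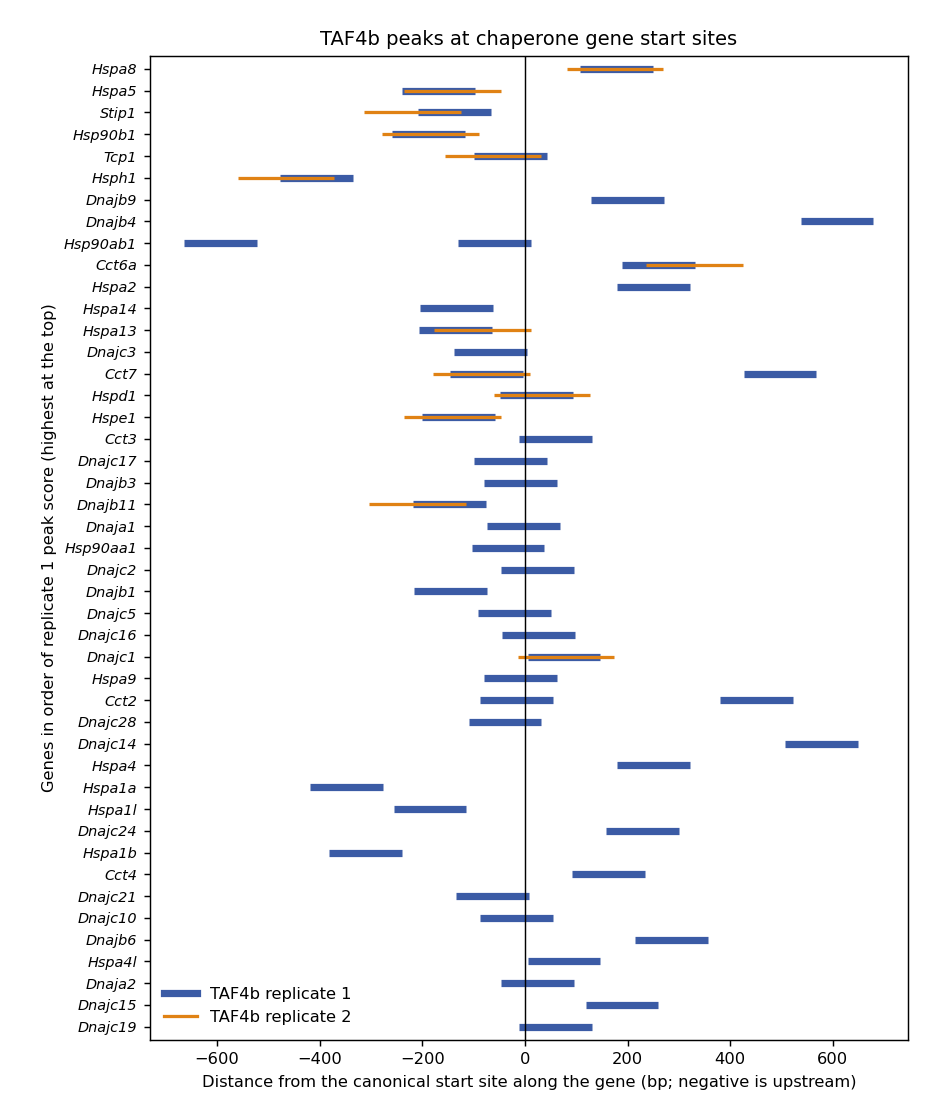
TAF4b peaks in replicate 1 (blue) and replicate 2 (orange) as bars over their full width, by distance of the peak from the canonical start site along the gene (x axis, bp), for the 45 members with a peak within 800 bp of it, ordered by replicate 1 score. All 13 orange bars overlap a blue one, and they are most frequent in the upper part of the plot.

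H3K4me3 replicate 1 covered 35 of the 37 member peaks of TAF4b replicate 1 (94.6%), against 86.3% of all promoter peaks of the list, and 7 of 8 member peaks of TAF4b replicate 2 (87.5%; all 90.8%). Regions of H3K4me3 replicate 2, a much shorter list, covered 0 of the 8 member peaks of TAF4b replicate 2 (all 13%) and 6 of the 37 of replicate 1 (16.2%; all 8.36%). The level of H3K4me3 did not separate members with TAF4b from those without: the median percentile of the highest region in the window was 85.7 for the 47 with a replicate 1 peak and 86.6 for the 23 with a region and no TAF4b. For the 13 members with TAF4b in both libraries it was 90.8, ranging from 44.3 to 98. That middle value is the one of Hspd1, from a region listed for Mob4 at a distant start site. The region by the promoter that Hspd1 shares with Hspe1 was at percentile 52.8. Hspa8 and Hsph1 combined high TAF4b with H3K4me3 scores of only 47.7 and 41.7, percentiles 51.2 and 44.3. Dnajc22 had an H3K4me3 region at percentile 99.2 and no TAF4b peak in the window, although a replicate 1 peak with a score of 8.44, classed as intron at 984 bp from the start site, lay in another H3K4me3 region of the gene.

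**Figure D4:**
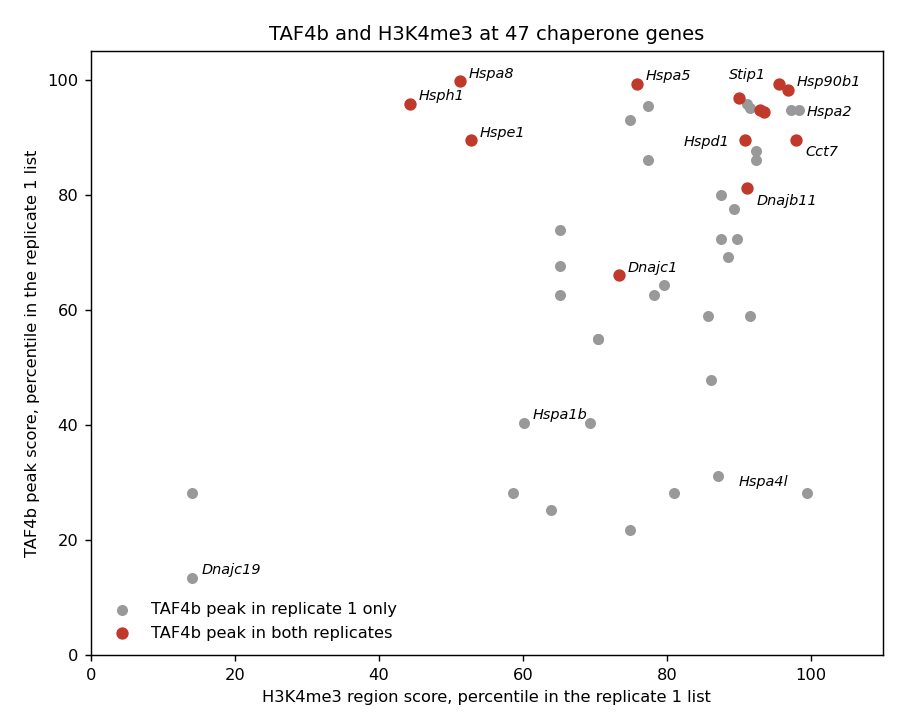
TAF4b score percentile (y axis) against H3K4me3 score percentile (x axis), both in the replicate 1 lists, for the 47 members with both in the start site window; red points also have TAF4b in replicate 2. Hspa8, Hsph1 and Hspe1 lie high on the y axis near the middle of the x axis, Hspa4l lies at the far right with low TAF4b, and Hspd1 is placed by a region at a distant start site.

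Every TAF4b peak spans 143 bases in replicate 1 and 189 in replicate 2. Within these intervals a heat shock element was present in 5 of 37 member peaks in replicate 1 (13.5%, 5.91 to 28%), against 4.4% of all promoter peaks, and in 3 of 8 in replicate 2 (37.5%, 13.7 to 69.4%), against 6.15%. The replicate 1 peaks belonged to Hspa8 and Hspe1 with 2 matches each and to Cct2, Dnajb4 and Hspa4l with 1 each, and those in replicate 2 to Hspa8, Hspe1 and Stip1. The replicate 1 peak of Stip1 held none. Dnajb6 in replicate 1 and Cct6a in replicate 2 also held an element, outside these counts because their peaks are listed for other genes. A window of 200 bp on the peak centre, which takes in DNA beyond both edges of the interval, held an element at 7 of 37 in replicate 1 (18.9%, 9.48 to 34.2%; all 6.01%) and 3 of 8 in replicate 2 (all 6.28%). The elements of Dnaja1 and Hsp90aa1 were in this window and outside their replicate 1 peaks. The same held for a Cct7 peak listed for Pradc1, which is outside these counts. None lay in the central 100 bp (0 of 37, 0 to 9.41%, and 0 of 8, 0 to 32.4%). There 2.76% and 2.81% of all promoter peaks had a match, which these intervals cover. The counts therefore do not set the position of the members' elements apart from that in all promoter peaks. In the sequences printed above the Hspe1 elements start at base 163 of 189 and those of Stip1 at bases 18 and 23.

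In the same 200 bp windows, ER stress elements were present at Dnajc3 in replicate 1 (1 of 37, 2.7%; all promoter peaks 0.261%) and at Hspa5 in replicate 2 (1 of 8, 12.5%; all 0.401%), and Hsp90b1, outside these counts because its peak is listed for Ttc41, had one in both. CCAAT boxes were in 13 of 37 (35.1%; all 42.1%) and 4 of 8 (50%; all 59.1%) member windows, and GC boxes (GGGCGG) in 20 of 37 (54.1%; all 65.9%) and 6 of 8 (75%; all 71.9%). Within the intervals themselves CCAAT boxes were in 10 of 37 (27%; all 37.9%) and 4 of 8 (50%; all 58.4%), and GC boxes in 18 of 37 (48.6%; all 56.9%) and 5 of 8 (62.5%; all 70.7%). The share of G and C was a median of 64% in member windows and 64.5% in all of replicate 1. These matches are letters in a window and say nothing of which factor was bound.

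**Figure D5:**
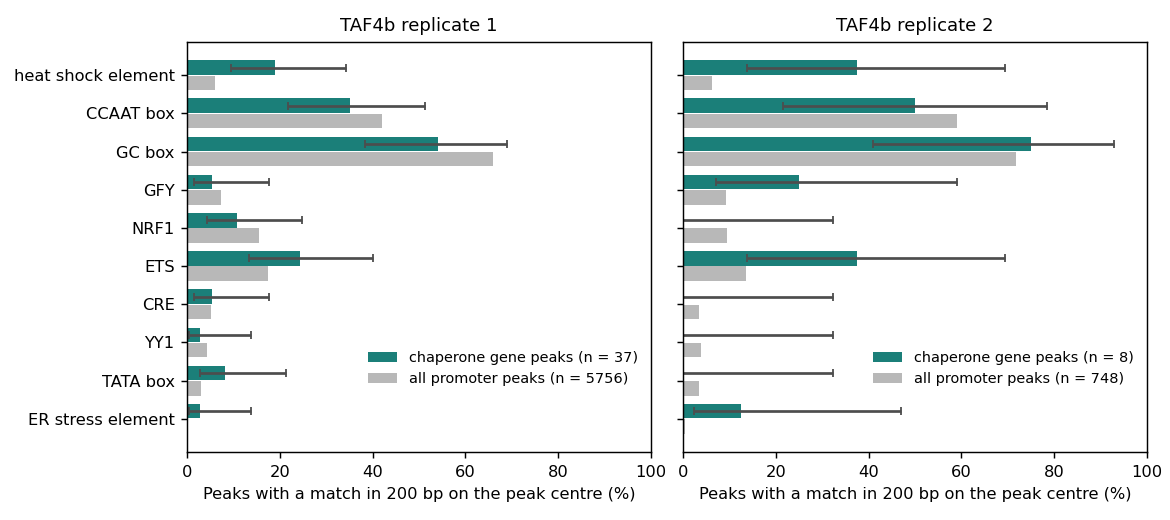
Share of TAF4b promoter peaks with a match to each of 10 consensus sequences in the 200 bp centred on the peak, which reach past the peak's edges (x axis, percent), for member peaks (green, with 95% Wilson intervals) and all promoter peaks (grey), in replicate 1 (left) and replicate 2 (right). The replicate 1 interval of the members lies above the grey bar for the heat shock element (9.48 to 34.2%) and, with 1 match, for the ER stress element (0.479 to 13.8%). In replicate 2, with 8 peaks, it does so for the heat shock element and ETS (13.7 to 69.4% each) and, with 1 match, for the ER stress element (2.24 to 47.1%).

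RefSeq promoters (GRCm38.p6, 250 bases before to 50 after each start) were found for 59 of the 72 members, 77 promoters in all. A heat shock element was in 16 of them (20.8%, 13.2 to 31.1%), an interval that covers the 15.1% of all 32851 promoters. An ER stress element was in 3 (3.9%, those of Dnajc3, Hsp90b1 and Hspa5), against 0.119%. GC boxes were in 57 (74%; all 35.7%) and TATA boxes (TATAAA) in 3 (3.9%; all 13.6%). ETS matches (CCGGAAG) were in 17 (22.1%, all 8.86%) and NRF1 matches (GCGCANGCG) in 14 (18.2%, all 6.25%). The 14 members with a heat shock element there were Cct2, Cct5, Cct6a, Dnaja1, Dnaja4, Dnajb4, Dnajb6, Dnajc10, Dnajc27, Hspa1a, Hspa1b, Hspd1, Hspe1 and Hsph1.

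Further genes of the same network, 71 co-chaperones, cofactors and regulators, were counted by the promoter class. TAF4b was at 37 in replicate 1 (52.1%; all genes 22.7%) and 8 in replicate 2 (11.3%; all genes 3.14%). H3K4me3 was at 43 in replicate 1 (60.6%; all genes 44%) and 5 in replicate 2 (7.04%; all genes 4.14%). The start site window gave TAF4b at 43 and 10 (60.6% and 14.1%; all genes 28.2% and 4.08%) and H3K4me3 at 70 and 9 (98.6% and 12.7%; all genes 70.7% and 7%). Among 19 Hsp90 co-chaperones, a subgroup drawn after the values were seen, 13 had a replicate 1 promoter peak. Ahsa1, the activator of the Hsp90 ATPase, scored 31.3 and 76.9 in the TAF4b libraries and Fkbp5, an Hsp90-bound immunophilin, 31.8 and 64.8. Tomm34, a mitochondrial import co-chaperone, was in replicate 2 alone, at 52.6. Calr, a lectin chaperone of the endoplasmic reticulum, scored 38.2 and 105.3, and Hyou1, the Hsp110-like exchange factor there, scored 24.8 and 52.6. Hspbp1, an Hsp70 exchange factor, scored 45.7 and 68.8, and Clpb, a mitochondrial disaggregase, scored 25.3 and 60.7.

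Under the promoter class, replicate 1 gave the phosducin-like partners of CCT 4 of 4 genes with TAF4b and 4 of 4 with H3K4me3, and the small heat shock proteins 0 of 9 and 1 of 9 (all genes 22.7% and 44%). Under the start site window the small heat shock proteins had TAF4b at 1 of 9 (Hspb6) and H3K4me3 at 9 of 9 (all genes 28.2% and 70.7%). TAF4b replicate 1 promoter peaks were at 2 of 6 BAG family genes, 1 of 6 prefoldin genes and 3 of 5 tubulin folding cofactors. All these subgroups were drawn after the values were seen. Of the heat shock transcription factors, Hsf1, the main activator of the heat shock response, had a TAF4b peak of 26.3 in replicate 1 and H3K4me3 promoter regions in both libraries. Hsf4 had a weaker peak of 11.9 at -959 bp, and Hsf2 and Hsf5 had none.

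Marker genes of the cell types of the fetal testis were counted as for the members. TAF4b replicate 1 named 7 of 13 germ cell genes by a promoter peak (all genes 22.7%), 0 of 6 genes of Sertoli and other supporting cells, 0 of 6 of Leydig and interstitial cells and 0 of 5 of endothelial and blood cells, and replicate 2 named none of these genes. The start site window added the interstitial gene Nr2f2 in replicate 1. Nanos2 and Nanos3, germ cell markers, had no promoter-class or window interval in any of the 4 libraries. H3K4me3 replicate 1 regions were at the promoters of 7 of 13 germ cell genes, 5 of 6 supporting cell genes (Sox9, Wt1, Dmrt1, Gata4 and Dhh), 2 of 6 interstitial and 1 of 5 endothelial and blood genes (all genes 44%). In the start site window these counts were 10 of 13, 5 of 6, 2 of 6 and 3 of 5 (Pecam1, Kdr and Ptprc), against 70.7% of all genes, so the H3K4me3 list did not set germ cell genes apart. Whether other cells contributed to the H3K4me3 regions at chaperone genes, which most cell types use, was not tested.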

How the data were processed

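CUT&RUN intervals for TAF4b (2 libraries) and H3K4me3 (2 libraries) were used as deposited; samples were grouped by their titles. Per the submitters' processing notes, the tools named are Trim Galore 0.5.0, Bowtie2 2.3.0, SAMtools 1.9 and HOMER 4.10. The H3K4me3 intervals were annotated by HOMER, per the file headers, against GRCm39 with Ensembl 103; the TAF4b headers give no command, and GRCm39 was inferred for them. The deposited peak score is the authors' value, no header gives its normalization, and it was used only to rank intervals within a list. Other deposited columns used were coordinates, annotation and distance. Peak caller and threshold are not given in the sources used here.

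Transcripts were matched to GENCODE M39 (99% to 99.2% of rows per list). An overlap needed 1 shared bp. A percentile is the average rank of a score divided by the length of its list. The background is the percent of all protein-coding genes called by the same rule, and no set test was made. The search for 10 consensus sequences covered both strands of the 200 bp centred on each peak in GRCm39, which is wider than the peak. The further sequences searched were NRF1 (GCGCANGCG), ETS (CCGGAAG), CRE (TGACGTCA) and YY1 (AANATGGCG). Gene assignment, overlaps and sequence search were checked on simulated data. The members and all lists were chosen with earlier results of these data known. Members were named by rule: those with a TAF4b promoter peak in replicate 2, the 3 highest of each class in replicate 1, those with an H3K4me3 promoter region in replicate 2 or 2 TAF4b promoter peaks, members without any promoter interval, and 16 well-known members whatever their values; others named were chosen after their values were seen. A further gene of the network meets the rule and is not reported here. Alternatives were other gene assignment rules, the higher-scoring 50% of each list, equal list sizes, each replicate left out and, chosen after seeing the data, the canonical start site, genes with H3K4me3 only and sequence matches within the deposited interval. Python 3.11.15, pandas 2.3.3 and pysam 0.24.0 were used.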

Additional observations from a re-analysis of the deposited data

How the results depend on the processing

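Of 40 alternative values for the shares, counts, ranks and distances, 23 kept within the spread or interval of the reported value, 15 moved and 2 reversed. Counting by the start site window raised TAF4b replicate 1 from 47.2% to 65.3% of members (all genes 28.2%), H3K4me3 replicate 1 from 66.7% to 97.2% (70.7%) and the members with TAF4b in both replicates from 8 to 13 (3.53%); the nearest start site within 1000 bp gave 87.5% (62%) for H3K4me3 replicate 1. The canonical start site gave 59.7% (TAF4b replicate 1; all genes 25.7%) and 95.8% (H3K4me3 replicate 1; 66%). Restricting the start site window count to members with H3K4me3 in the window gave 67.1% for TAF4b replicate 1 in place of 65.3%, so most of the distance from 47.2% came with the window. The higher-scoring 50% of each list left 34.7% and 5.56% (TAF4b replicates 1 and 2; all genes 14.4% and 1.58%), 4.17% (H3K4me3 replicate 2; 2.13%) and 4 members in both (1.41%). With replicate 1 lists reduced to the size of replicate 2, under the promoter class, TAF4b fell to 13.9% (all genes 3.35%) and H3K4me3 to 1.39% (3.42%). The difference between antibodies turned from -9.03 to 6.94 points (exact permutation p = 0.333). Leaving out a replicate gave differences from -19.4 to 1.39 points. With the replicate number as a replicate block the paired difference was -9.03 points (exact sign-flip test, p = 1, smallest possible 0.5). Against the other replicate's H3K4me3 list, 16.2% of TAF4b replicate 1 peaks and 87.5% of replicate 2 peaks overlapped, in place of 94.6% and 0%. Of 50 alternative values for sequence matches, 39 stayed and 11 moved. Both replicate 2 lists are short, so a member missing from them is not shown to lack the signal. The causes of these shifts were not tested beyond the list sizes themselves.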

Other observations

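The replicate 2 peaks of Hspa5 and Hsph1, on chromosomes 2 and 5, held the same run of 20 bases, CGAATCGGCAGCAGCCAGCT, on the strand of each gene. It was the longest identical run among 1033 pairs of member peaks at different loci, and the next longest was 15 bases. The run was in 2 of 748 TAF4b replicate 2 promoter peaks, in 1 of 5756 in replicate 1, and in 1 of 32851 RefSeq promoters, that of Hspa5. The run was noticed after the sequences were seen.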
